A study of Mus musculus with 12 samples.

Results

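The genes described here are 10 imprinted genes of growth and fat cell formation, namely Peg10, Sgce, Mest, Dlk1, Meg3, H19, Plagl1, Grb10, Peg3 and Zim1. They were taken by gene symbol from a list drawn up with earlier results of these data known. The list was selected on the levels of Peg3 and Dlk1, which had been noted as differing between the LIGHT and control lines, so differences between lines are given below as a description without a test. The rule has no threshold. Of the 10 genes, 8 were listed in at least 1 library, among 18255 genes listed in all, and 7 passed the filter on low counts, among 12993 genes tested. Meg3 and Zim1 were listed in no library, and Grb10 did not pass the filter. Whether the authors' annotation held Meg3 and Zim1 is not known, so their absence is not read as a lack of expression.

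RNA was sequenced from 3T3-L1 cells, mouse preadipocytes that grow like fibroblasts, in 12 libraries that form 4 groups of 3. The groups are differentiated cells of a line that overexpresses LIGHT, the cytokine encoded by Tnfsf14, differentiated cells of the control line, undifferentiated LIGHT cells and undifferentiated control cells. Differentiated cells had received serum medium with dexamethasone, IBMX, rosiglitazone, tri-iodothyronine, indomethacin and insulin, a mixture for beige fat cells, and then maintenance medium with rosiglitazone, tri-iodothyronine and insulin. How LIGHT was introduced, whether either line is a single clone, and the day of harvest are not stated in the sources used here. Since no label names separate cultures within a group, the p-values cover only the spread between libraries, which may be technical. The stage comparison cannot tell the agents apart from time in culture.

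Each library held 16334079 to 19686675 expected counts. Levels are given as CPM, counts scaled to library size with TMM factors, except where genes are compared with each other, which is done on FPKM, a value divided by gene length. The summed level of 6 adipocyte markers was 15349 to 20927 CPM in differentiated LIGHT and 15583 to 21037 CPM in differentiated control libraries, against 180 to 217 CPM in undifferentiated LIGHT and 201 to 237 CPM in undifferentiated control libraries. The 3 thermogenic markers summed to 7.79 to 11.9 CPM in differentiated LIGHT and 6.16 to 11.5 CPM in differentiated control libraries, against 0.786 to 1.42 CPM and 1.62 to 2.33 CPM before differentiation. Nearly all of this was Ppargc1a, the coactivator PGC-1 alpha, at 9.77 ± 2.02 CPM in LIGHT and 8.04 ± 2.99 CPM in control cells after differentiation, against 1.14 ± 0.312 CPM and 1.88 ± 0.395 CPM before it (SD, n = 3 each). Ucp1, the uncoupling protein that defines thermogenic fat, reached at most 0.106 CPM in differentiated LIGHT and 0.0622 CPM in differentiated control libraries, under the 0.152 to 0.184 CPM that 3 counts are worth. Desmin (Des), a muscle marker, was also higher after differentiation, at 14.3 to 25.7 CPM in LIGHT and 14.5 to 25.2 CPM in control libraries, against 5.66 to 7.15 CPM and 6.46 to 7.3 CPM before it, while Myod1 was not listed. Krt8, an epithelial keratin, stood at 1.58 to 5.55 CPM in LIGHT and 0.871 to 7.81 CPM in control libraries after differentiation, against at most 0.118 and 0.281 CPM before it. Of the other epithelial markers, Cdh1 did not move with it and reached at most 0.0609 CPM in any library. Epcam was not listed, so its level is not known. Leukocyte markers summed to at most 3.87 CPM and endothelial markers to at most 1.09 CPM in any library. The part of these markers in the results below was not tested. In such bulk RNA, fewer cells of a type and less RNA per cell cannot be told apart.

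A pair of libraries went against their labels. Tnfsf14 had 0, 148 and 122 counts in the differentiated LIGHT libraries 1, 2 and 3, and 113, 0 and 0 counts in the differentiated control libraries 1, 2 and 3. Before differentiation it had 38, 53 and 58 counts in LIGHT and 0, 1 and 0 counts in control libraries. Over all tested genes the library labelled differentiated LIGHT 1 differed from differentiated control 2 and 3 by a root mean square log2 difference of 0.407 and 0.39, and from LIGHT 2 and 3 by 0.59 and 0.585. The library labelled differentiated control 1 differed from differentiated LIGHT 2 and 3 by 0.407 and 0.426, and from control 2 and 3 by 0.618 and 0.595. Libraries were kept in their labelled groups. Most results on the members that rest on these 2 libraries are also given without them, and other results where stated. Counts of calls among other imprinted genes and genes around Dlk1 are given as labelled only.

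Imprinted genes are expressed mainly from the copy inherited from one parent, and DNA methylation marks set in the egg or sperm differ between the copies. They lie in clusters that share control elements, and many of them act on growth of the embryo, the placenta and adipose tissue. Peg10, Sgce, Mest, Dlk1, Plagl1 and Peg3 are expressed from the paternal copy in the mouse, and H19, Meg3 and Zim1 from the maternal copy, while Grb10 uses the maternal copy in most tissues and the paternal copy in neurons. The libraries do not separate the copies, so every level below is the sum of both.

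Sequences of Peg10, Mest, Dlk1 and Peg3 are given below, and DNA methylation was not measured. Peg10 derives from a retrotransposon and its RNA is read in 2 frames through a ribosomal frameshift. The slippery heptamer of that shift, GGGAAAC, occurred once in the annotated Peg10 coding transcript, at chr6:4755327-4755333 (GRCm38, plus strand), inside the coding sequence. It stands in capitals in the 60 bases of chr6:4755300-4755359.
Peg10 frameshift site: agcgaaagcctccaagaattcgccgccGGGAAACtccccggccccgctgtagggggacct

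The promoter windows of 3 members follow, each running from 250 bases before to 50 bases after an annotated start (RefSeq, GRCm38.p6), with CpG, the site of DNA methylation, in capitals. They were chosen because Mest was among the members with the largest rises on differentiation, and Dlk1 and Peg3 were the members first noted for a line difference. The Mest window is chr6:30737800-30738099 (plus strand), the Dlk1 window chr12:109452573-109452872 (plus strand) and the Peg3 window chr7:6730370-6730669 (minus strand).
Mest promoter: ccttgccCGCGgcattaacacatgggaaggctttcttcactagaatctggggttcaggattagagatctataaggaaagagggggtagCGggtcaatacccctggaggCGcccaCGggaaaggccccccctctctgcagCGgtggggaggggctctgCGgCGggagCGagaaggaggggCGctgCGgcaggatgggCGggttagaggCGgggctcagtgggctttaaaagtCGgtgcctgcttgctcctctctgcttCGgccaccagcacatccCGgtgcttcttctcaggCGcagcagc
Dlk1 promoter: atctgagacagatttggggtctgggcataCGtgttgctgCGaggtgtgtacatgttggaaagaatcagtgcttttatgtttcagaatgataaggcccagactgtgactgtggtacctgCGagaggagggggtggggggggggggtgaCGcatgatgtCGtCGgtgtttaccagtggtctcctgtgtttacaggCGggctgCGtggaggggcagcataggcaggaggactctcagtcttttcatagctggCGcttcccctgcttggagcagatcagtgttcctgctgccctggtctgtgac
Peg3 promoter: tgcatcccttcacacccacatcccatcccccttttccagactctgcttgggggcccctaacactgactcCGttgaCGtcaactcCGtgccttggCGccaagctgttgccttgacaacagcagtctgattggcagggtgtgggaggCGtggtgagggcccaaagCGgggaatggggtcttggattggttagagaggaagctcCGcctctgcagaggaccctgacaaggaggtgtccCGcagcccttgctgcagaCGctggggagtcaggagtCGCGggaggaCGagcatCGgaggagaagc

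The printed Mest window held 17 CpGs, which 31.4% of all 32851 annotated windows match or exceed, the Peg3 window 13 (37.9%) and the Dlk1 window 9 (45.8%), against a median of 7. Mest also had a window at chr6:30733256-30733555 with 8 CpGs (48.6%). Another, at chr6:30737803-30738102, nearly repeats the printed Mest window, and both are among the windows searched. Of the 10 genes, 7 had a window, 11 windows in all, and windows of Peg10, Sgce and H19 were not used here. Each window was searched on both strands for the direct repeat bound by PPAR and RXR (AGGTCA, any 1 base, AGGTCA), for TTGCGCAA, the C/EBP palindrome, and for AAGATGGCG, the YY1 core. Over all windows 0.0396%, 0.183% and 1.4% hold these, in that order, and of the 11 member windows 0 do. At such shares 11 windows would seldom hold any of them, so the 0 says little about the members.

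After differentiation Peg10 and Mest were higher by the most of these genes and Dlk1 was lower, in both lines. Of the 7 genes tested, 5 passed an adjusted p under 0.05 for the mean change of both lines, beside 71.4% of all genes. Of those, 4 were higher after differentiation, beside 35.9% of all genes, and 1 was lower, beside 35.5%. In LIGHT cells 3 passed, beside 58.6% of all genes. Peg10 and Mest were higher there (background 29.5%) and Dlk1 was lower (29.1%). In control cells 6 passed, beside 63.9%. Peg10, Mest, H19 and Sgce were higher (32.2%) and Dlk1 and Plagl1 lower (31.7%). The median log2 fold change of the 7 genes was 0.29 in LIGHT and 0.36 in control cells, against 0.00 for all genes in both. Mest passed the low-count filter only through the differentiated groups and Plagl1 only through undifferentiated control cells, the groups in which each is high, so their calls were in part built in. With that and a background of this size, the number of calls says little about the list. With the 2 doubted libraries left out, 7 genes passed for the mean of both lines (background 75.6%), 5 in LIGHT cells (64.1%) and 6 in control cells (70.7%). All adjusted p-values are from edgeR's quasi-likelihood test with Benjamini-Hochberg adjustment over all tested genes.

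**Figure D1:**
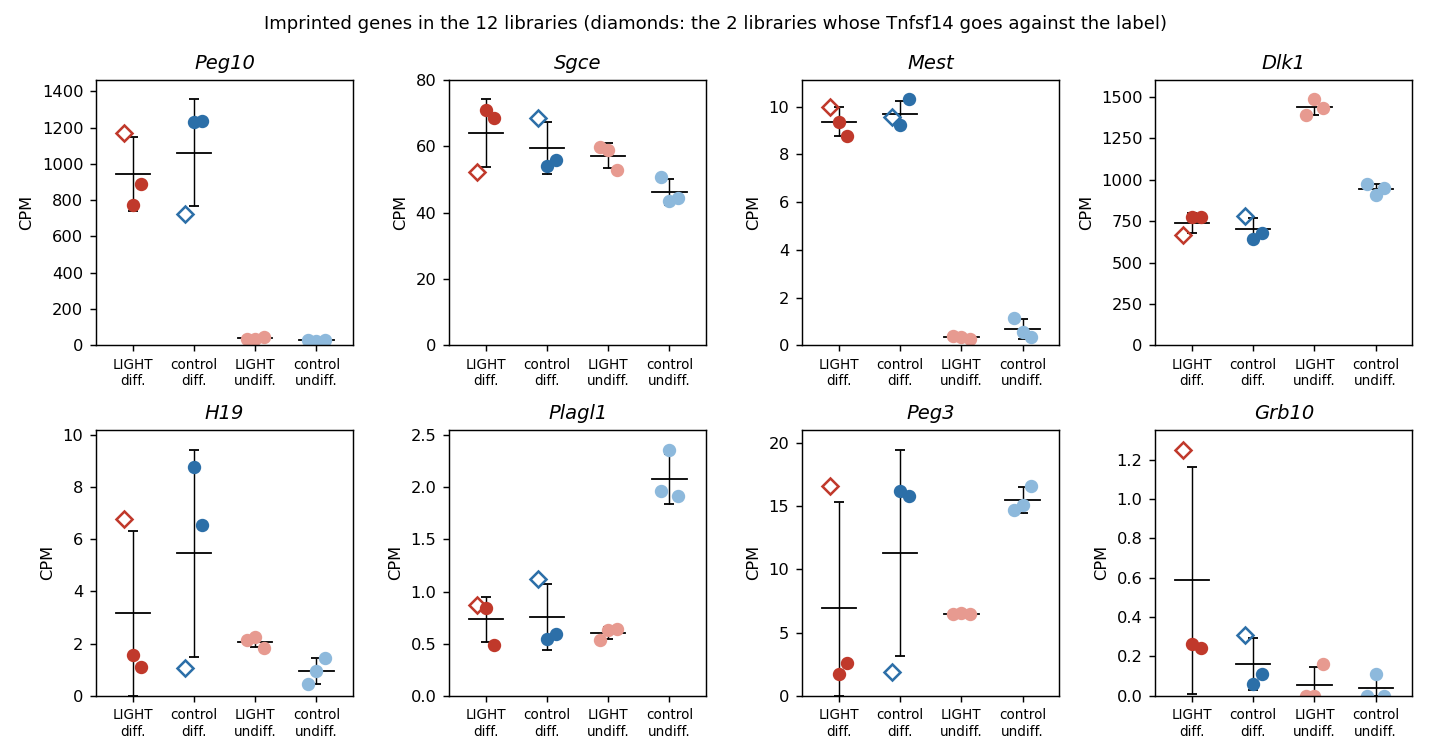
Level of each listed gene in CPM (vertical axis, linear, from 0) in the 4 groups; circles are libraries, open diamonds the 2 libraries whose Tnfsf14 goes against the label, horizontal lines group means and bars the SD (n = 3, cut at 0). Peg10 and Mest lie far higher in every differentiated library than in any undifferentiated one, Dlk1 lies lower, and the Peg3 and H19 diamonds lie among the circles of the other line.

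Peg10 encodes retrotransposon-derived Gag and Gag-Pol proteins and is required for the mouse placenta. In LIGHT libraries 1, 2 and 3 it stood at 1171, 775 and 890 CPM after differentiation, against 36.5, 35.8 and 43.8 CPM before it. In control libraries 1, 2 and 3 it stood at 723, 1228 and 1234 CPM after differentiation, against 29.1, 26 and 28.4 CPM before it. Every differentiated library lay more than an order of magnitude above every undifferentiated one. Peg10 rose by 4.61 (SE 0.22, adjusted p = 3.83e-09) on the log2 scale in LIGHT cells, a fold of 24.4, and by 5.25 (SE 0.23, adjusted p = 1.30e-09) in control cells, a fold of 38.1. These were 4.43 and 5.49 without the doubted libraries.

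Sgce, epsilon-sarcoglycan, a membrane protein of the dystrophin-associated complex, is the immediate neighbour of Peg10 in the RefSeq gene order. Both genes share a control region and are transcribed in opposite directions in the mouse. Sgce stood at 52.4, 71 and 68.7 CPM in LIGHT cells after differentiation, against 59.9, 58.9 and 52.9 CPM before it, with groups that overlap. Control libraries stood at 68.5, 54 and 56 CPM after differentiation, against 50.9, 43.5 and 44.5 CPM before it, with groups that do not. The log2 fold change was 0.16 (SE 0.12, adjusted p = 0.268) in LIGHT cells and 0.36 (SE 0.12, adjusted p = 0.0213) in control cells. The call in control cells was lost when counts were scaled by library totals (adjusted p = 0.132), in limma on FPKM (adjusted p = 0.156), and also without undifferentiated control 2 (0.0754), undifferentiated control 3 (0.0671) or differentiated control 1 (0.0564). When both doubted libraries were left out, Sgce passed in both lines, with log2 fold changes of 0.29 in LIGHT (adjusted p = 0.00206) and 0.27 in control cells (adjusted p = 0.00422). The large rise of Peg10 thus stood beside fitted Sgce folds of 1.12 in LIGHT and 1.28 in control cells. Of the other genes in the same stretch of the chromosome, Casd1, a sialic acid acetyltransferase, did not pass (mean log2 fold change -0.11, adjusted p = 0.277), and Pon2, the lactonase paraoxonase 2, rose by 0.77 (SE 0.06, adjusted p = 1.70e-07).

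Mest encodes a protein with the fold of alpha/beta hydrolases and is known as a marker of fat expansion in mice. It stood at 10, 9.35 and 8.77 CPM in LIGHT cells after differentiation, against 0.413, 0.367 and 0.268 CPM before it. Control libraries stood at 9.58, 9.21 and 10.3 CPM after differentiation, against 1.15, 0.562 and 0.35 CPM before it. The differentiated libraries were alike in both lines and all lay above the undifferentiated ones. Mest rose by 4.72 (SE 0.32, adjusted p = 7.51e-08) on the log2 scale in LIGHT and by 3.80 (SE 0.29, adjusted p = 1.66e-07) in control cells, or by 4.68 and 3.83 without the doubted libraries. Undifferentiated libraries held only 5 to 20 Mest counts, and Mest reached 10 counts in every library of a group only in the differentiated groups, so it passed the filter through the groups in which it is high. Copg2, a coat protein subunit gene with 1 gene between it and Mest in RefSeq order, had a log2 fold change of 0.15 (adjusted p = 0.144) in LIGHT and rose by 0.90 (adjusted p = 1.62e-06) in control cells. Without the doubted libraries its changes were 0.10 in LIGHT and 1.02 in control cells.

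Dlk1, also called Pref-1, is a membrane protein with EGF repeats whose shed ectodomain holds mouse preadipocytes undifferentiated. It stood at 667, 772 and 776 CPM in LIGHT cells after differentiation, against 1392, 1484 and 1432 CPM before it. In control cells it stood at 779, 644 and 680 CPM after differentiation, against 971, 909 and 947 CPM before it. All differentiated libraries lay below all undifferentiated libraries, and the 2 differentiated groups overlapped. On the log2 scale it changed by -0.96 (SE 0.09, adjusted p = 1.14e-06) in LIGHT cells, a fall of 1.95-fold, and -0.43 (SE 0.09, adjusted p = 8.16e-04) in control cells, a fall of 1.34-fold. It was -0.89 in LIGHT and -0.49 in control cells without the doubted libraries. After differentiation Dlk1 thus still stood at 738 ± 61.9 CPM in LIGHT and 701 ± 70.1 CPM in control cells (SD, n = 3 each).

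Rian, Mirg, Rtl1 and Begain, of the Dlk1 cluster, were low. Meg3, a maternally expressed long noncoding RNA, was listed in no library, so no value can be given and its level is not known. Rian had 0 to 7 counts and Mirg 0 to 11 counts in a library, and Rtl1, a retrotransposon-derived gene, had an estimated 1.29 to 23 counts. Begain, an adaptor of synaptic proteins, had a mean log2 fold change of -0.54 (SE 0.79, adjusted p = 0.554). Rtl1 passed the filter on low counts only without the doubted libraries. Its fitted log2 change was then -0.96 (SE 0.75, adjusted p = 0.271) in LIGHT and 2.48 (SE 0.78, adjusted p = 0.00801) in control cells. Only differentiated control 3 (23 counts) and undifferentiated LIGHT 3 (19.7 counts) held more than 9.07 Rtl1 counts. The control call rested on 7.76 and 23 counts after differentiation, against 1.29, 2.61 and 4 before it. It was thus in part built in by the filter, and no change of Rtl1 is read from it.

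**Figure D2:**
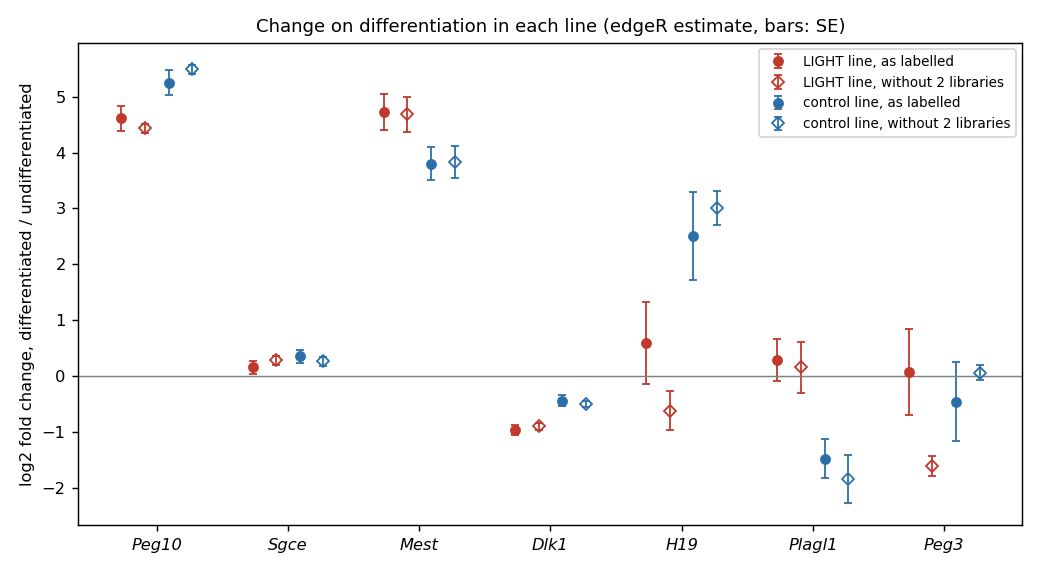
Change of the 7 tested genes on differentiation, as log2 fold change of differentiated over undifferentiated cells (vertical axis), in the LIGHT line (red) and the control line (blue), with all libraries (filled circles) and without the 2 doubted libraries (open diamonds); bars are SE. Peg10, Mest and Dlk1 keep their direction and size with and without the 2 libraries, whereas H19 and Peg3 in the LIGHT line move from 0.60 to -0.61 and from 0.08 to -1.60.

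H19 is a maternally expressed noncoding RNA and the host of a microRNA, and it shares enhancers with the growth factor gene Igf2. It stood at 6.79, 1.58 and 1.1 CPM in LIGHT cells after differentiation, against 2.13, 2.25 and 1.83 CPM before it. Control libraries stood at 1.06, 8.78 and 6.53 CPM after differentiation, against 0.462, 0.955 and 1.46 CPM before it. The libraries labelled 1 stand apart in both differentiated groups, and they are the doubted ones. The fitted log2 difference was 0.60 (SE 0.73, adjusted p = 0.5) in LIGHT and 2.51 (SE 0.78, adjusted p = 0.0131) in control cells. The control call was lost without undifferentiated control 1 (adjusted p = 0.0555) or differentiated control 2 (adjusted p = 0.0537). Leaving out the doubted libraries gave -0.61 (SE 0.35, adjusted p = 0.137) in LIGHT and 3.01 (SE 0.31, adjusted p = 4.85e-08) in control cells.

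Igf2, insulin-like growth factor 2, is expressed from the paternal copy and has 2 genes between it and H19 in RefSeq order. It stood at 89.9, 34.7 and 33.8 CPM in LIGHT cells after differentiation, against 0.532, 1.15 and 0.698 CPM before it. Control libraries stood at 44.8, 80.7 and 80.3 CPM after differentiation, against 2.08, 1.01 and 1.92 CPM before it. All differentiated libraries lay above all undifferentiated ones, and the doubted libraries again lay nearer to the other line. Igf2 rose by 6.02 (SE 0.52, adjusted p = 7.97e-07) on the log2 scale in LIGHT and by 5.36 (SE 0.47, adjusted p = 6.97e-07) in control cells, or by 5.41 and 5.61 without the doubted libraries. Kcnq1ot1 and Tssc4, of the adjoining cluster, had mean log2 fold changes of 0.04 and -0.01 and did not pass.

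Plagl1, or Zac1, is a zinc finger transcription factor that regulates other imprinted genes in the mouse. It stood at 0.873, 0.845 and 0.487 CPM in LIGHT cells after differentiation, against 0.532, 0.629 and 0.644 CPM before it. Control libraries stood at 1.12, 0.545 and 0.594 CPM after differentiation, against 1.96, 2.36 and 1.92 CPM before it. Undifferentiated control libraries thus lay above all others, and they were the only group with at least 10 counts in every library, through which the gene passed the filter. The log2 fold change was 0.29 (SE 0.38, adjusted p = 0.54) in LIGHT and -1.47 (SE 0.35, adjusted p = 0.00275) in control cells, and 0.16 and -1.83 without the doubted libraries.

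Grb10 encodes an adaptor that binds the insulin and IGF1 receptors and dampens their signalling. It had 20, 5 and 4 counts in LIGHT libraries after differentiation, against 0, 0 and 3 counts before it. In control libraries it had 5, 1 and 2 counts after differentiation, against 0, 2 and 0 counts before it. The library labelled differentiated LIGHT 1, one of the doubted pair, thus held 20 of the 29 counts of its group, and the gene was too low for the main test. In the test without the filter on low counts its fitted log2 fold change was 3.26 (SE 1.20, adjusted p = 0.0381) in LIGHT and 1.88 (SE 1.41, adjusted p = 0.313) in control cells. When the doubted libraries were also left out, a repeat chosen after the data were seen, it was 2.08 (SE 1.44, adjusted p = 0.246) in LIGHT and 1.03 (SE 1.77, adjusted p = 0.664) in control cells, so neither passed.

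Peg3 encodes a zinc finger protein that acts in growth and in maternal behaviour of mice. It stood at 16.6, 1.74 and 2.56 CPM in LIGHT cells after differentiation, against 6.44, 6.55 and 6.5 CPM before it. In control cells it stood at 1.87, 16.2 and 15.8 CPM after differentiation, against 14.7, 15.1 and 16.6 CPM before it. The doubted libraries lie at the level of the opposite line, and without them the differentiated groups no longer overlap. The log2 fold change on differentiation was 0.08 (SE 0.76, adjusted p = 0.931) in LIGHT and -0.45 (SE 0.71, adjusted p = 0.603) in control cells. Without the doubted libraries it was -1.60 (SE 0.18, adjusted p = 1.62e-07) in LIGHT cells, a fall of 3.03-fold, and 0.07 (SE 0.13, adjusted p = 0.607) in control cells. With only differentiated LIGHT 1 left out, the LIGHT change was also -1.60, but with SE 0.65 and adjusted p = 0.0546, so it did not pass. The list was selected on the line difference of Peg3, and the same LIGHT libraries enter both comparisons. The immediate neighbour Zim1, a maternally expressed zinc finger gene, was listed in no library, and Usp29, a ubiquitin protease gene with 1 gene between it and Peg3, had 0 to 5 counts.

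**Figure D3:**
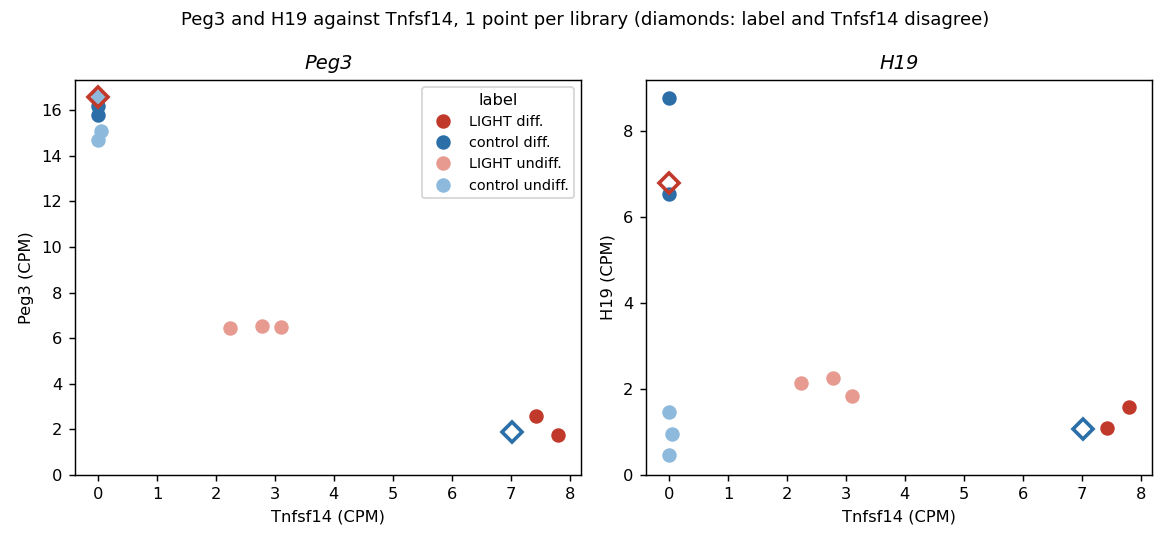
Peg3 (left) and H19 (right) in CPM (vertical axes) against Tnfsf14 in CPM (horizontal axes), with 1 point per library coloured by its label; open diamonds are the 2 libraries whose Tnfsf14 goes against the label. For Peg3 the diamond labelled differentiated LIGHT lies at 16.6 CPM and the diamond labelled differentiated control at 1.87 CPM, each beside libraries of the other label.

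The lines differed before differentiation in 6 of the 8 listed genes, in the sense that the 3 LIGHT and 3 control libraries did not overlap, beside 52.3% of all tested genes. Grb10 counts among the 8 but was not tested. Peg3 and Dlk1 are among the 6, and the list was chosen with their line differences known. Peg3 averaged 6.49 ± 0.0544 CPM in LIGHT and 15.4 ± 1.03 CPM in control cells (SD, n = 3 each), a log2 difference of -1.25 (SE 0.73). Plagl1 averaged 0.601 ± 0.061 CPM in LIGHT and 2.08 ± 0.242 CPM in control cells, a log2 difference of -1.78 (SE 0.36). These 2 genes were lower in LIGHT cells. Dlk1 averaged 1436 ± 46.2 CPM in LIGHT and 942 ± 31.3 CPM in control cells, a log2 difference of 0.61 (SE 0.09). Peg10, Sgce and H19 also lay higher in LIGHT cells, with log2 differences of 0.48 (SE 0.20), 0.31 (SE 0.12) and 1.11 (SE 0.80). Mest overlapped, with -0.97 (SE 0.40), or -0.39 without undifferentiated control 1. The fit shares its spread over all groups, so these SEs include the doubted libraries. Without those the differences were -1.24 (SE 0.12) for Peg3, -1.77 (SE 0.37) for Plagl1 and 0.62 (SE 0.05) for Dlk1. They were 0.49 (SE 0.08) for Peg10, 0.32 (SE 0.07) for Sgce, 1.12 (SE 0.33) for H19 and -0.96 (SE 0.43) for Mest. The summed level of the 7 fibroblast markers also differed in the undifferentiated libraries, at 17860 to 19538 CPM in LIGHT and 9945 to 11844 CPM in control cells. Its part in these differences was not tested. That sum was carried by the collagens Col1a1, Col1a2 and Col3a1. Pdgfra was also higher in LIGHT cells, at 178 ± 5.37 CPM against 103 ± 11.8 CPM in control cells. In contrast, Pdgfrb averaged 182 CPM in both lines, Ly6a 295 CPM in LIGHT and 283 CPM in control cells, and Thy1 230 CPM in LIGHT and 268 CPM in control cells.

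After differentiation 0 of the 8 genes separated the lines as labelled, beside 6.77% of all tested genes. Leaving out the doubted libraries, with 2 libraries left in each group, 6 of 8 did, beside 67.1%. Peg3, Dlk1 and the untested Grb10 count toward these 6. With a background of this size, the number says little about the list. Without the doubted libraries the log2 differences were -2.91 (SE 0.18) for Peg3, -2.50 (SE 0.34) for H19 and -0.57 (SE 0.08) for Peg10, all lower in LIGHT cells. They were 0.22 (SE 0.06) for Dlk1 and 0.34 (SE 0.08) for Sgce, higher in LIGHT cells. Grb10 was the other gene that separated, with 5 and 4 counts in LIGHT and 1 and 2 counts in control libraries. With the doubted libraries left out, Peg3 thus lay lower in LIGHT cells at both stages, and H19 and Peg10 lay higher in LIGHT cells before differentiation and lower after it. The stage comparisons above share these libraries, so they are not separate evidence of a line difference.

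Per length, Dlk1 had the highest mean level of the listed genes in all 4 groups as labelled. Its FPKM averaged 174 ± 19.5 in differentiated LIGHT, 161 ± 19.4 in differentiated control, 353 ± 12.4 in undifferentiated LIGHT and 235 ± 7.74 in undifferentiated control cells (SD, n = 3 each). Peg10 came next after differentiation, at 143 ± 26.3 FPKM in LIGHT and 158 ± 40.7 FPKM in control cells, and did not part from Dlk1 in either line. Without the doubted libraries Dlk1 lay above Peg10 in differentiated LIGHT cells (185 and 129 FPKM) and below it in differentiated control cells (150 and 181 FPKM). Before differentiation Peg10 lay below Sgce, with 6.2 FPKM against 37.6 FPKM in LIGHT and 4.48 FPKM against 31 FPKM in control cells. Sgce stood at 40.5 FPKM in LIGHT and 36.6 FPKM in control cells after differentiation. Mest, H19 and Peg3 averaged between 1.03 and 3.82 FPKM in the differentiated groups, with H19 and Peg3 overlapping in both lines, and Plagl1 and Grb10 averaged at or under 0.14 FPKM. Leaving out the doubted libraries, H19 lay above Peg3 with no overlap, at 0.625 and 0.335 FPKM in differentiated LIGHT and 3.41 and 2.34 FPKM in differentiated control cells.

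Among 58 other imprinted genes, 49 were listed and 33 tested, and 15 rose (45.5%, against 35.9% of all genes) and 8 fell (24.2%, against 35.5%) on differentiation in the mean of both lines, with a median log2 fold change of 0.06, against -0.01 for all genes. In LIGHT cells 11 rose (33.3%, against 29.5%) and 9 fell (27.3%, against 29.1%), and in control cells 13 rose (39.4%, against 32.2%) and 7 fell (21.2%, against 31.7%). Several of these shares lie near those of all genes, and none was tested against them. Of the genes with the smallest p, Igf2, Blcap (0.87), Pon2 and Trappc9 (0.75) rose. Slc38a4, an amino acid transporter, fell to 25.7, 33.3 and 33 CPM in differentiated LIGHT cells, against 131, 130 and 137 CPM in undifferentiated LIGHT cells, and had a mean log2 fold change of -2.06 (SE 0.09, adjusted p = 4.62e-10). The receptor tyrosine kinase Axl fell by 1.93 (SE 0.09), the flippase gene Atp10a by 1.31 (SE 0.07) and Peg12 by 1.60 (SE 0.13), all on the log2 scale. The direction of change thus differed from one imprinted gene to the next.

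**Figure D4:**
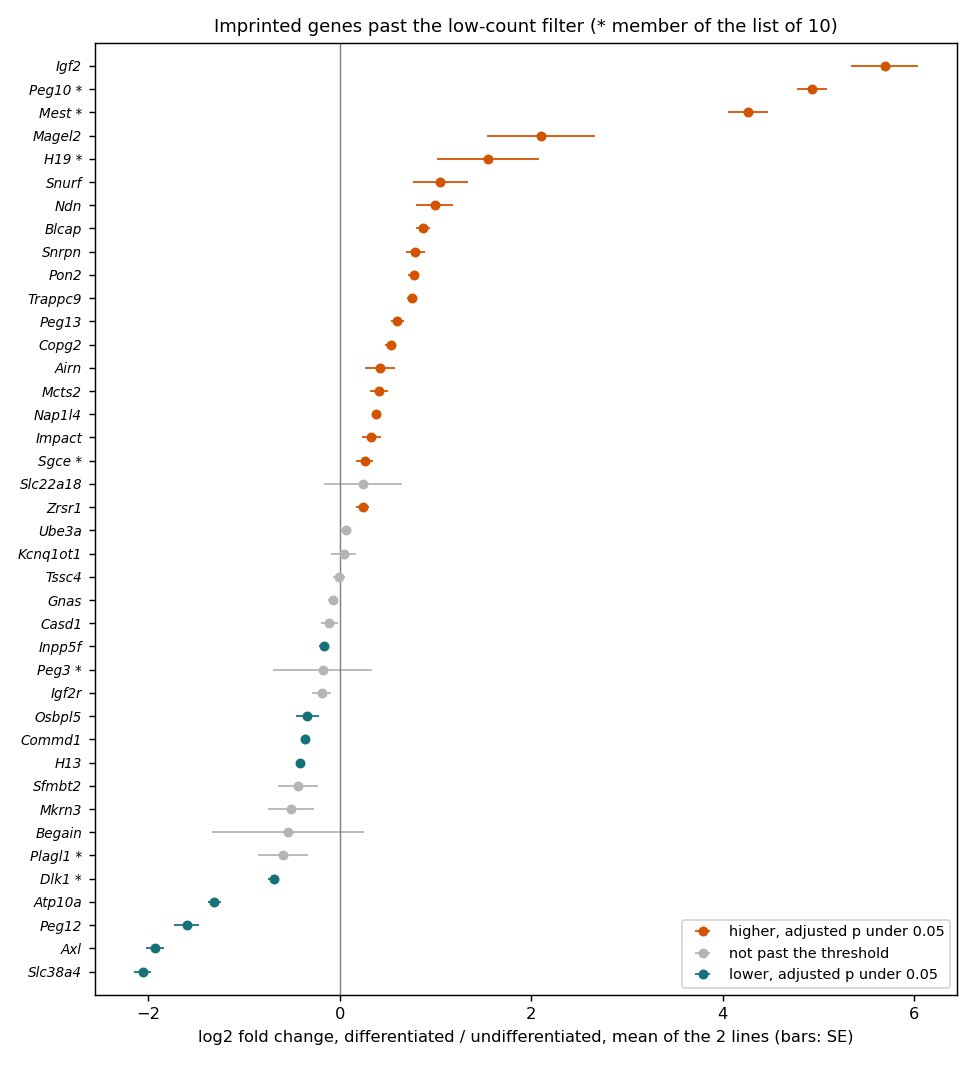
Mean log2 fold change of both lines on differentiation (horizontal axis, bars SE) for the 7 tested genes of the list (asterisks) and 33 other tested imprinted genes, in order of size; orange is higher, teal lower and grey not past an adjusted p of 0.05. Igf2, Peg10 and Mest stand at the top, and Slc38a4 and Axl at the bottom.

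Of 17 genes around Dlk1, namely Notch receptors, ligands and targets and the factors through which Dlk1 acts on adipogenesis, 16 were tested, and 10 rose (62.5%, against 35.9% of all genes) and 3 fell (18.8%, against 35.5%) in the mean of both lines. In LIGHT cells 6 rose (37.5%, against 29.5%) and 4 fell (25%, against 29.1%), and in control cells 10 rose (62.5%, against 32.2%) and 3 fell (18.8%, against 31.7%). Cebpa and Pparg, transcription factors of the adipocyte program, rose by 5.15 (SE 0.06, adjusted p = 1.35e-14) and 3.50 (SE 0.10, adjusted p = 1.04e-11). Notch1 rose by 0.45 (SE 0.11, adjusted p = 0.00326) in LIGHT and by 1.58 (SE 0.11, adjusted p = 1.08e-07) in control cells. Fibronectin (Fn1), reported to bind Dlk1 in mouse preadipocytes, fell by 1.66 (SE 0.10, adjusted p = 1.70e-08). Dlk2, the relative of Dlk1, had 3, 0 and 5 counts in differentiated LIGHT and 8, 8 and 5 counts in differentiated control cells, against 34, 42 and 52 counts in undifferentiated LIGHT and 136, 152 and 138 counts in undifferentiated control cells. It was named after its values were seen. Its mean log2 fold change was -4.06 (SE 0.32, adjusted p = 1.28e-07). Every differentiated library held fewer than 10 Dlk2 counts, so the gene passed the filter through the undifferentiated groups, in which it is high. The call was thus in part built in, and the size of the fall is not set against that of Dlk1.

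The genes whose log2 CPM followed each member most closely over the 12 libraries were found for the 5 members with a mean of at least 5 CPM. For Peg3 these were Plekhb2 (Pearson r 0.985) and Hbs1l (0.968), and for Dlk1 Ifi27l2a (0.990) and Prdx4 (0.989). For Peg10 they were Tusc5 (0.999) and Tspan12 (0.998), for Mest 5730508B09Rik (0.994) and Syn2 (0.993), and for Sgce C1s2 (0.971) and C1s1 (0.969). The libraries share stage, line and scaling, so these values only describe a like pattern. C1s1 and C1s2 are near-identical copies whose reads may have been split between them.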

How the data were processed

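The authors deposited, per the file headers, 1 table per library with gene number, symbol, length, expected count and FPKM. Expected counts, as deposited, are estimates that share reads between transcripts, and 83.6% to 84.5% of the values were whole. The deposited FPKM divide by gene length and library total. The submitters' processing notes name the build mm8. The aligner, the counter and any use of strand are not stated in the sources used here, so reads of genes that overlap on opposite strands may be mixed. Tables list only genes above 0, so a missing gene was read as 0, and 3 counts were worth 0.152 to 0.184 CPM, for counting error only. The tables hold no positions. Coordinates of printed sequences are those of GRCm38, not mm8.

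Rounded expected counts went into edgeR 4.0.16 under R 4.3.3, with TMM, filterByExpr (minimum count 10), 1 coefficient for each of the 4 groups, the quasi-likelihood test and Benjamini-Hochberg adjustment over all 12993 genes (threshold 0.05). SE is the size of the log2 fold change over the root of its F statistic. The script was tested on simulated data. Alternatives were DESeq2 1.42.0, limma 3.58.1 on log2(FPKM + 0.1), RLE scaling, library totals, no filter or a stricter one (1 CPM in 3 libraries), a replicate block, each library left out, and both doubted libraries left out.

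The members and lists were chosen with earlier results of these data known. Named are all members, up to 8 other imprinted genes and up to 4 genes around Dlk1 with the smallest p on differentiation (mean of both lines) and at least 5 CPM in a group, and 2 genes most like each member by Pearson r. Neighbours of members and Dlk2 were added after their values were seen. No library was a duplicate of another.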

Additional observations from a re-analysis of the deposited data

How the results depend on the processing

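Leaving out the 2 doubted libraries moved the genes called between lines to 5836 before differentiation (3446 as labelled) and 4079 after it (0 as labelled), those called for the interaction to 4077 (1214 as labelled), and the members called in LIGHT cells to 5 (3 as labelled). The 0 calls after differentiation in edgeR stood beside 523 genes at an unadjusted p under 0.05, and DESeq2 called 1 and limma 0. Leaving out each library in turn gave 2238 to 4280 line calls before differentiation and 675 to 1868 interaction calls. In the same runs Peg3 ranged from -1.01 to 0.08 in the mean of both lines, from -1.60 to 0.56 in LIGHT and from -0.77 to 0.07 in control cells, and H19 in LIGHT cells from -0.61 to 1.00. Peg3 in LIGHT cells was also below 0 without both doubted libraries (-1.60), with library totals (-0.02), with the replicate block (-0.01) and in limma (-0.55), and in control cells above 0 (0.07) without both. H19 in LIGHT cells was -0.61 without both. The replicate block left 747 interaction calls. Deviations of same-numbered libraries from their group means had correlations from -0.618 to 0.0973. Those with a differentiated group include the doubted libraries, so they cannot settle whether the numbers pair libraries. Between the undifferentiated groups the correlations were -0.00687, 0.00956 and 0.0445, which shows no pairing there. Library totals shifted the median log2 change over all genes by -0.11 in control and -0.08 in LIGHT cells on differentiation, and by 0.04 or less in size between lines and for the interaction. In limma 66.9% of interaction calls were higher, against 54.4% in edgeR. The cause of these moves was not tested. In the mean of both lines the H19 call was lost without undifferentiated control 1 (adjusted p = 0.0507), differentiated control 2 (0.0504) or differentiated LIGHT 1 (0.078) and in limma (0.102), the Sgce call with library totals (0.132) and in limma (0.151; 0.156 in control cells), and Plagl1 passed without differentiated control 1 (0.0208), without both doubted libraries (0.0229), with library totals (0.0336) and in limma (0.0155). Peg3 passed there without differentiated LIGHT 1 (0.0389) and without both (3.27e-06), and Sgce in LIGHT cells without differentiated LIGHT 1 (0.0314). Peg10, Mest and Dlk1 kept direction and call on differentiation in every alternative run. Mest passed the main filter on low counts only through the differentiated groups, and the list was selected with the line difference of Dlk1 known. Grb10, Mest and Plagl1 are limited by depth.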

Other observations

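Outside the 10 genes, paternally expressed Ndn, a growth suppressor of the MAGE family, followed the Tnfsf14 content of the differentiated libraries in the other direction from Peg3. This was noticed after the values were seen and is given as a description. Without the doubted libraries, 67.1% of all tested genes did not overlap between the differentiated lines, so such a pattern is common and not particular to Ndn. Ndn stood at 92.9, 176 and 164 CPM in differentiated LIGHT libraries 1, 2 and 3 and at 182, 91 and 89.6 CPM in differentiated control libraries 1, 2 and 3, against 69.8, 68.6 and 69.1 CPM in undifferentiated LIGHT and 57.4, 67.5 and 65.5 CPM in undifferentiated control libraries. On differentiation Ndn rose by 1.06 (SE 0.27) in LIGHT and by 0.93 (SE 0.27) in control cells on the log2 scale, and by 1.30 and 0.53 without the doubted libraries. Snrpn, an imprinted splicing protein gene that can share reads with Snurf, rose by 0.65 (SE 0.14, adjusted p = 0.00187) in LIGHT and by 0.94 (SE 0.14, adjusted p = 9.38e-05) in control cells, or by 0.48 and 1.11 without the doubted libraries.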
